A study of Mus musculus with 12 samples.

Results

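Macrophages sorted from mouse hearts 7 days after cryoinjury were set against macrophages of the same sorting gate from uninjured hearts and from hearts 30 days after injury, to describe the state of the repair phase. Cryoinjury freezes part of the heart wall and served as a model of myocardial infarction. All mice were Cx3cr1GFP/+ knock-ins aged 2 to 3 months, in which 1 copy of Cx3cr1, a chemokine receptor gene, is replaced by GFP, which labels cells of the monocyte lineage. The uninjured controls carried this allele too. The comparison used 9 of the 12 libraries of the series, 3 of day 7 against 3 of day 0 (no surgery) and 3 of day 30, all labelled Ly6clow/CX3CR1high and described as independent biological replicates. The other 3 libraries, of day 3, came from another gate (Ly6chigh/CX3CR1low) and entered only the estimate of the spread between libraries. Of 14460 genes in the table, 12879 reached an average of 1 in signal across all 12 libraries and were tested. Signal is the linear normalised read count per gene of the deposited table, and it is not divided by gene length.

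Macrophages of the heart include long-lived resident cells, which carry receptors such as LYVE1, TIM4 and CD163, and cells derived from blood monocytes that enter after injury. In the repair phase they take up dead cells and debris, break the cargo down in lysosomes, handle the lipid and iron set free by it, and act on the extracellular matrix of the scar. GPNMB, TREM2 and osteopontin are known as products of such lipid-laden phagocytes in several tissues.

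Depth was 5828904 to 13199576 reads per library. On the first principal component of these 9 libraries (52.6% of the variance) day 7 replicate 2 stood at 88.6 and the other day 7 libraries at 31.5 and 32.0, against -26.6 to -10.2 at day 0 and -35.9 to -33.7 at day 30. The day 30 libraries were closely alike (r across genes 0.990 to 0.993, against 0.933 to 0.971 for pairs of day 7 libraries and 0.957 to 0.976 for pairs of day 0 libraries), and the values do not show whether they came from separate animals or from 1 pool of RNA. Day 0 replicate 1 stood apart from the other day 0 libraries on both components and in stress-related genes given with the cytokines. Values without them, or with the day 30 libraries averaged as 1 sample, stand beside the lists and genes that they moved most. The labelled cell type was checked against its markers: all 13 macrophage markers had reads in each of the 9 libraries, and their summed signal was 18963 to 26364 at day 7, 19274 to 20727 at day 0 and 15537 to 16173 at day 30. Ly6c2, an antigen of the gate that the counting could share with its near copy Ly6c1, had a signal of 2.88, 26.7 and 22.2 at day 7, 1.32, 20.7 and 20.1 at day 0 and 2.81, 2.40 and 3.23 at day 30. It did not pass the test (adjusted p = 0.177), and neither did Cx3cr1, which had 142, 204 and 176 at day 7, 156, 157 and 145 at day 0 and 132, 126 and 134 at day 30 (adjusted p = 0.0990).

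Each gene's difference is given as its mean log2(signal + 1) at day 7 minus the average of the day 0 and day 30 means, with its standard error, and was tested with limma with Benjamini-Hochberg adjustment over all genes at a threshold of 0.05. By this test 4939 genes (38.3%) differed, 2477 (19.2%) higher and 2462 (19.1%) lower at day 7, and the median difference of all genes was -0.01. Since such a difference can come from 1 side alone, a second test asked that day 7 lie beyond day 0 and beyond day 30 in the same direction: 1660 genes (12.9%) did, 873 (6.78%) above and 787 (6.11%) below. With the day 30 libraries averaged as 1 sample 198 genes did (130 above and 68 below), without day 7 replicate 2 1012 and without day 0 replicate 1 1178. Counts of genes beyond both days given further on treat the day 30 libraries as separate samples. Later counts of list members, with all 12 libraries as separate samples, stand against these shares of all genes. The shares are 19.2% higher and 19.1% lower than the average of the other days, and 6.78% above and 6.11% below both days. They do not hold for counts from other settings, which called other numbers of genes in all. Without day 7 replicate 2 it was 1771 genes higher and 1678 lower than the average, and without day 0 replicate 1 it was 2414 and 2306. Set against each side alone, day 7 differed in 2782 genes (21.6%) from day 0 and in 5103 genes (39.6%) from day 30, while day 30 differed from day 0 in 796 (6.18%). With the day 30 libraries averaged, 2460 genes differed from the average of the other days, 1740 from day 0 and 815 from day 30, and 14 differed between day 30 and day 0. These comparisons share libraries and are not independent of each other. In 1750 genes (13.6%) the 3 day 7 values all lay above the other 6, and in 1610 (12.5%) all below. In a bulk sample, a change in the share of one kind of cell and a change in RNA per cell cannot be told apart.

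**Figure D1:**
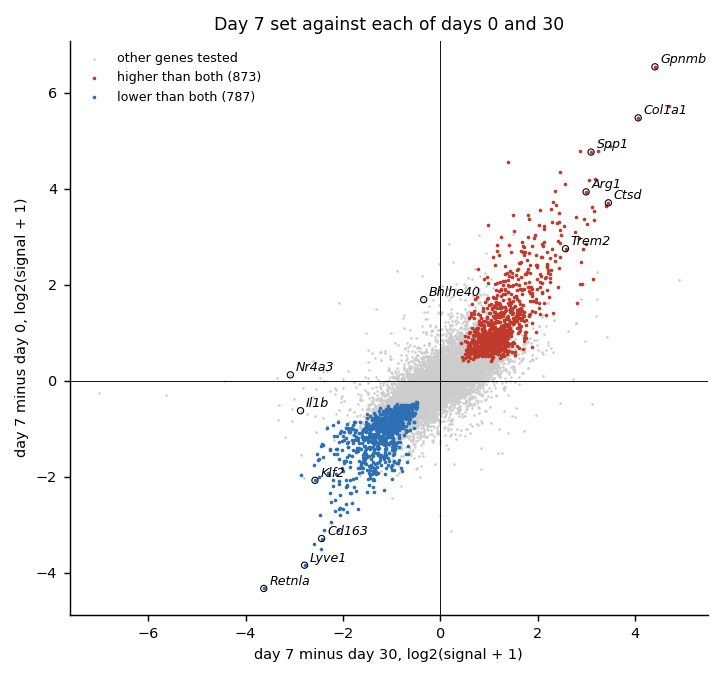
Each point is 1 of the 12879 genes tested, with the difference of day 7 from day 30 across and of day 7 from day 0 upwards, both as log2(signal + 1). Red points are the 873 genes higher than both days, blue points the 787 genes lower than both; Il1b and Nr4a3 lie to the left near the horizontal axis, lower than day 30 only, and Bhlhe40 lies above it, higher than day 0 only.

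Of the 12 named genes furthest above both days, Gpnmb, Cd5l and Spp1 belong to a list known from lipid-laden phagocytes. Col1a1, Col1a2, Col3a1, Postn, Lox and Sparc are fibroblast markers or matrix genes, and Igf2r, Ctsd and Arg1 were the others. Of 25 genes of a lipid-associated macrophage list, 20 rose at day 7 and 1 fell (all genes: 19.2% and 19.1%), with a median difference of 1.36, and 16 lay above both days, 14 of the 25 with the day 30 libraries averaged. Gpnmb, which encodes the glycoprotein GPNMB (chromosome 6, 49036546 to 49070929 on GRCm38), had a signal of 800.1, 1299.7 and 933 at day 7, 3.56, 13.2 and 17.6 at day 0 and 46.9, 42.7 and 47.5 at day 30. All 3 day 7 libraries thus lay far above all others, a difference of 5.48 ± 0.39 (adjusted p = 5.01e-07), and day 30 was above day 0 by 2.13 (adjusted p = 0.0107). Spp1, the gene of osteopontin (chromosome 5, 104435118 to 104441050), had 404, 426 and 475 at day 7, 8.05, 16.2 and 25.2 at day 0 and 46.8, 52.3 and 50.5 at day 30. The order was again day 7, day 30, day 0, with no overlap, and the difference of day 7 was 3.93 ± 0.30 (adjusted p = 8.48e-07). Trem2, the lipid-sensing receptor (chromosome 17, 48346401 to 48354147), had 245, 389 and 238 at day 7, 39.7, 44.5 and 39.3 at day 0 and 45.8, 48.3 and 46.1 at day 30. Its rise of 2.66 ± 0.25 (adjusted p = 3.44e-06) stood on a day 30 level that did not pass against day 0 (adjusted p = 0.751).

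Cd5l, a secreted macrophage protein that binds lipid (chromosome 3, 87357881 to 87371073), had 43.8, 59.9 and 81.5 at day 7, 0, 0 and 0.543 at day 0 and 1.40, 1.13 and 1.46 at day 30. No day 0 library exceeded the 3 reads that set the limit of detection (a signal of 0.190 to 0.543 by library), day 30 was above it, and day 7 was the highest. Fabp5, a fatty acid binding protein, had 121, 132 and 142 at day 7, 5.28, 15.9 and 17.2 at day 0 and 19.03, 19.6 and 15.8 at day 30, a difference of 3.10 ± 0.26. Lgals3, which encodes galectin 3 of damaged lysosomes and phagosomes, rose by 2.66 ± 0.19, Pld3, a lysosomal phospholipase D family member, by 2.23 ± 0.17 and the lysosomal acid lipase Lipa by 1.36 ± 0.14. Smaller rises were those of Soat1, which esterifies cholesterol for storage (1.44 ± 0.13), and Plin2, the coat protein of lipid droplets (1.09 ± 0.11). Lpl, lipoprotein lipase, had 168, 134 and 185 at day 7, 148, 135 and 118 at day 0 and 174, 176 and 181 at day 30 and did not pass (adjusted p = 0.815). Cd36, the fatty acid and oxidised lipoprotein receptor, was the member that fell: 144, 121 and 196 at day 7, 326, 492 and 428 at day 0 and 283, 298 and 304 at day 30, a difference of -1.20 ± 0.27 (adjusted p = 0.00342). The other members that did not pass were Fabp3, Fabp4 and Mmp12.

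**Figure D2:**
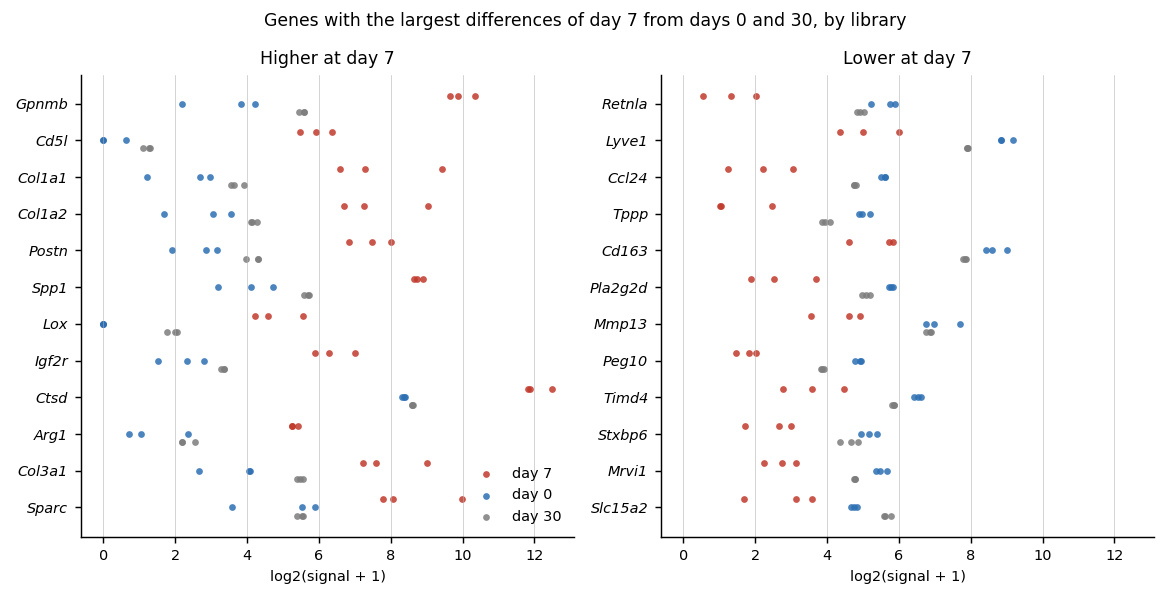
The 12 genes with the largest positive differences (left) and the 12 with the largest negative ones (right) among those that passed both tests without overlap, each point 1 library, as log2(signal + 1), with day 7 in red above day 0 in blue and day 30 in grey. Day 7 points lie apart from all others in each row; day 7 replicate 2 is the highest of the collagen and Sparc points.

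Genes that export cholesterol rose with them. Of 18 cholesterol efflux and liver X receptor genes 15 rose and none fell, with a median difference of 0.79, and 9 lay above both days; without day 7 replicate 2, 11 rose, and with the day 30 libraries averaged 10 rose and 5 lay above both days. Abcg1, a sterol exporter of the cell surface, had 110.1, 140.4 and 123 at day 7, 36.0, 33.1 and 34.2 at day 0 and 36.2, 40.7 and 37.7 at day 30. Day 30 did not pass against day 0 (adjusted p = 0.574), and day 7 was above both, by 1.75 ± 0.12 (adjusted p = 5.01e-07). Nceh1, a cholesterol ester hydrolase, rose by 1.64 ± 0.13, Apoe, the apolipoprotein that accepts exported cholesterol, by 1.69 ± 0.17, and Nr1h3, the liver X receptor alpha gene, by 1.23 ± 0.24. Abca1, the other main exporter, had 462, 491 and 471 at day 7, 419, 379 and 337 at day 0 and 317, 321 and 323 at day 30, a small rise of 0.45 ± 0.15 (adjusted p = 0.0318) that did not pass on both sides and whose call ended without day 7 replicate 2 (adjusted p = 0.0728), among other libraries. Genes of cholesterol synthesis moved little: of 21, 5 rose and 1 fell, with a median of 0.13, and 2 rose when day 7 replicate 2 was left out (median 0.07) or the day 30 libraries were averaged. The one that fell was Lss, lanosterol synthase, at -0.99 ± 0.19.

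Lysosomal genes were higher at day 7 as a broad group. Of 57 genes of hydrolases, membrane proteins and the proton pump, 42 rose and 3 fell, with a median of 0.83, and 30 lay above both days while 1 lay below. With the day 30 libraries averaged, 37 rose, none fell by limma's adjusted p, and 15 lay above both days. Ctsd, the aspartic protease cathepsin D (chromosome 7, 142375911 to 142388038), had 3746, 5738 and 3639 at day 7, 315, 328 and 336 at day 0 and 388, 393 and 387 at day 30. This was a difference of 3.58 ± 0.18 (adjusted p = 2.43e-08), and no day 7 library came near the others. Acp5, tartrate-resistant acid phosphatase, had 48.3, 84.6 and 42.2 at day 7, 8.71, 6.81 and 6.88 at day 0 and 10.4, 11.02 and 10.3 at day 30 (2.52 ± 0.19). Gla, alpha-galactosidase A, had 62.7, 82.1 and 88.7 at day 7, 17.2, 14.4 and 17.9 at day 0 and 25.3, 29.1 and 26.6 at day 30 (1.82 ± 0.14).

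Other enzymes that rose included Naglu (1.78 ± 0.22) and Sgsh (1.73 ± 0.20), which degrade heparan sulfate, and the cathepsins Ctsl (1.51 ± 0.18) and Ctsb (1.45 ± 0.17). Psap and Grn, which encode the precursors of the saposins and granulins, rose by 1.35 ± 0.15 and 1.37 ± 0.17. Of the proton pump, Atp6v1a, a catalytic subunit, had 330.0, 344 and 324 at day 7, 127, 99.4 and 120.1 at day 0 and 159.9, 154 and 162 at day 30 (1.29 ± 0.13, adjusted p = 5.02e-06). Lamp1, an abundant protein of the lysosomal membrane, rose by 0.79 ± 0.13, while Lamp2 stood at 0.02 and did not pass. The 3 members that fell were Ctsc, cathepsin C (-0.58 ± 0.14), Arsb, arylsulfatase B (-0.52 ± 0.14), and Ids, iduronate sulfatase (-0.44 ± 0.14), of which Ctsc lay below both days. All 3 missed the threshold with the day 30 libraries averaged (adjusted p = 0.0553 to 0.102), and Ids also without day 7 replicate 2. Igf2r, outside the list, encodes the receptor that carries newly made hydrolases to lysosomes (chromosome 17, 12682406 to 12769664). It had 76.9, 128 and 57.8 at day 7, 1.85, 5.98 and 3.98 at day 0 and 9.20, 8.76 and 9.19 at day 30, a difference of 3.62 ± 0.28 (adjusted p = 8.67e-07).

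**Figure D3:**
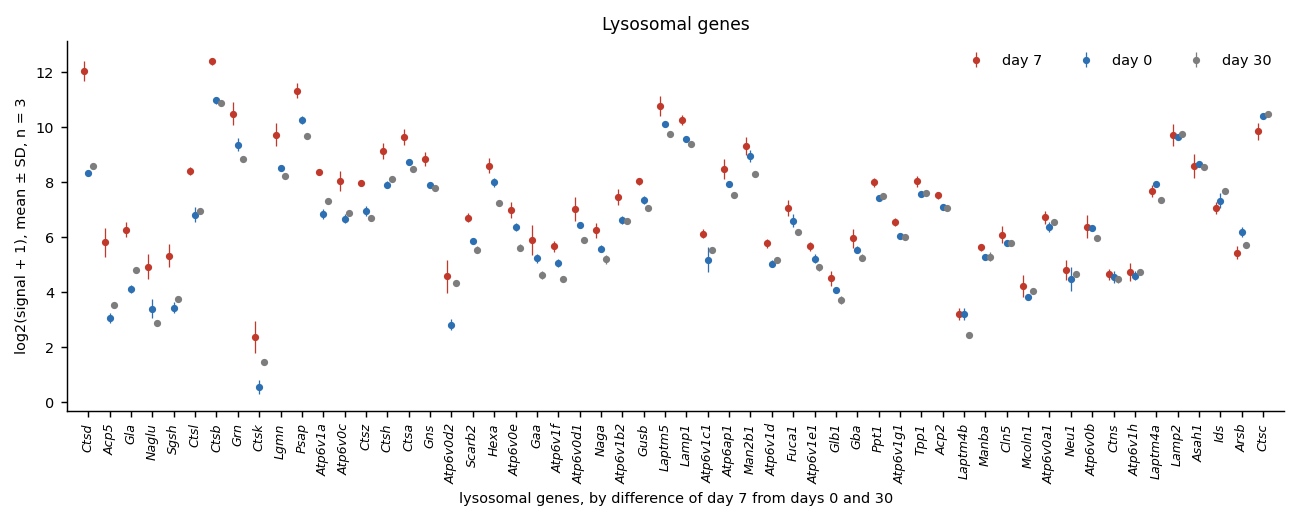
Mean and SD (n = 3) of log2(signal + 1) for 56 of the 57 lysosomal genes at day 7 (red), day 0 (blue) and day 30 (grey), ordered from the largest to the smallest difference of day 7 from the average of the other days. Day 7 lies above both other days over the left part of the plot, and Ids, Arsb and Ctsc at the right end are lower.

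Lysosomal genes are known targets of the MiT/TFE transcription factors, which bind the CLEAR element. Of the 4 factor genes 1, Tfeb, passed (all genes: 38.3%). It had 15.1, 23.5 and 9.79 at day 7, 9.77, 6.92 and 10.5 at day 0 and 7.95, 7.49 and 8.11 at day 30, overlapping with day 0 (0.79 ± 0.23, adjusted p = 0.0153). This call ended without day 7 replicate 2 (0.49, adjusted p = 0.102). Mitf (0.08), Tfe3 (0.05) and Tfec (0.26) did not pass. The core of the element, TCACGTGA, which reads the same on both strands, was searched from 250 bases before to 50 after the first listed start of each gene, in RefSeq promoters of build GRCm38.p6. It was in 196 of 9554 promoters of the genes tested (2.05%), in 53 of 1883 of genes that rose (2.81%), in 41 of 1728 of genes that fell (2.37%) and in 6 of 43 lysosomal promoters (14%). Those 6 were Ctsd, Gla, Atp6v1a, Atp6v0d1 and Atp6v0e, which rose, and Mcoln1, which did not pass at 0.28. Igf2r held the core at 2 places. The 4 promoters below show where the core (capitals) stands in the genes with values above, and a match is a description of the letters alone. The Ctsd window is chr7:142387778-142388077, that of Igf2r chr17:12769657-12769956, that of Gla chrX:134600956-134601255 and that of Atp6v1a chr16:44139210-44139509, all on the minus strand; the core starts at -99 in Ctsd, at -49 and -8 in Igf2r, at -228 and -195 in Gla and at -132 in Atp6v1a, counted from the start site.
Ctsd: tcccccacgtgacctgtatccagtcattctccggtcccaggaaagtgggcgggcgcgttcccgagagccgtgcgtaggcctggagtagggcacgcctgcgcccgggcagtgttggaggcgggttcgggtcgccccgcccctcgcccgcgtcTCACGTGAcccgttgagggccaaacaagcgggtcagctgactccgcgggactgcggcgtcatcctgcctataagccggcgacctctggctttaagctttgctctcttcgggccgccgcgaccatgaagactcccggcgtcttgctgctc
Igf2r: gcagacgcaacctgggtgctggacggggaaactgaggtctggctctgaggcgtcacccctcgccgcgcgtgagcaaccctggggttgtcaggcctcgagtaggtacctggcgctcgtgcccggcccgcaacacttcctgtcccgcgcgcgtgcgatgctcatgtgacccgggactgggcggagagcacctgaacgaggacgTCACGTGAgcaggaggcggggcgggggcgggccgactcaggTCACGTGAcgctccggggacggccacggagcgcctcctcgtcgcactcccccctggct
Gla: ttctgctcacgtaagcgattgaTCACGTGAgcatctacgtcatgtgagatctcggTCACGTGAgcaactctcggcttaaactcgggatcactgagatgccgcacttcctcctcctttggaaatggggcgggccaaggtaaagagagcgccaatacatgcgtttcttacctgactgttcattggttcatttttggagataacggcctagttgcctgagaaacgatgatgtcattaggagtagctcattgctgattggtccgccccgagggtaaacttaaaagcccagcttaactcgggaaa
Atp6v1a: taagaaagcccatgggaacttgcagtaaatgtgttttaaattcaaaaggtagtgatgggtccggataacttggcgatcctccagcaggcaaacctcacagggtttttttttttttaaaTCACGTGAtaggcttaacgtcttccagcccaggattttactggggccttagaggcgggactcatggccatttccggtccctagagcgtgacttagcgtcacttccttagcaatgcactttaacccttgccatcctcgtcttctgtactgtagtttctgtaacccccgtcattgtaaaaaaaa

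The promoter of Gpnmb (chr6:49036268-49036567, plus strand) held no CLEAR core but the letters TGACTCA of an AP-1 site, which starts at 9 bases from the start site counted from 1 and is shown in capitals. This motif, on either strand, was in 336 of 9554 promoters (3.52%), in 84 of 1883 of genes that rose (4.46%) and in 51 of 1728 of genes that fell (2.95%).
Gpnmb: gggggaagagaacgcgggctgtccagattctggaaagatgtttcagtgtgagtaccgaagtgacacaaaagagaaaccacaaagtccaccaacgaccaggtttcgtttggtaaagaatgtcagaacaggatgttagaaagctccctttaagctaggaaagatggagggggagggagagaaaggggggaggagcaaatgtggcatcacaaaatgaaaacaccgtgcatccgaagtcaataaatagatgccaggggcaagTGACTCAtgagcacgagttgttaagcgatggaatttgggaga

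Matrix proteins were higher at day 7, and so were markers of fibroblasts. Of 21 matrix and wound repair genes 16 rose and none fell, with a median of 1.50, and 10 lay above both days. Fn1, fibronectin, had 529.6, 1213 and 453 at day 7, 29.4, 101 and 129.7 at day 0 and 149, 152 and 149 at day 30, a difference of 2.65 ± 0.38. Sparc, a collagen-binding glycoprotein, had 268, 1021 and 220.1 at day 7, 11.1, 58.1 and 44.9 at day 0 and 45.2, 46.4 and 41.2 at day 30, with a difference of 3.37 ± 0.46 and of 2.68 without day 7 replicate 2. In both genes that library was the highest and all day 7 libraries lay above the rest. Tnc, tenascin C, rose by 3.26 ± 0.30, Thbs2, a thrombospondin, by 3.01 ± 0.37 and Tgm2, the crosslinking enzyme transglutaminase 2, by 2.47 ± 0.36. Without day 7 replicate 2, 11 of the 21 rose, with a median of 1.03, and with the day 30 libraries averaged 12 rose and 4 lay above both days.

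Fibroblast markers rose in 14 of 18 members and fell in 1, with a median of 2.05, and none of the 18 was at 0 in a day 7 library. Their summed signal was 947.4, 2703.8 and 680.1 in the day 7 libraries, 60.1, 153.9 and 167.3 at day 0 and 218.2, 225.1 and 219.4 at day 30, so day 7 replicate 2 was highest and the groups did not overlap. Col1a1, which encodes a collagen I chain (chromosome 11, 94936224 to 94953042), had 155, 693 and 95.4 at day 7, 1.32, 5.45 and 6.88 at day 0 and 10.8, 14.1 and 11.4 at day 30. Its difference was 4.77 ± 0.47 (adjusted p = 6.64e-06), and 3.94 without day 7 replicate 2. Postn, the injury-related matrix protein periostin, had 178, 257 and 113 at day 7, 2.77, 6.29 and 7.97 at day 0 and 14.7, 18.8 and 18.8 at day 30 (4.02 ± 0.26). Lox, a collagen crosslinking enzyme, had 23.2, 46.1 and 17.8 at day 7, was at 0 in each day 0 library and had 3.12, 2.97 and 2.41 at day 30. Other defining genes of the lineage differed less: Dcn, decorin, had 66.6, 154 and 66.3 at day 7, 23.2, 60.2 and 62.8 at day 0 and 64.0, 63.0 and 63.1 at day 30 and did not pass (adjusted p = 0.0652), and neither did Tcf21 or Fbln1. Pdgfra, a growth factor receptor of fibroblasts, stood at 0.77 ± 0.27 (adjusted p = 0.0382) and passed no longer without day 7 replicate 2 (0.43, adjusted p = 0.244) or several other single libraries. Fap, fibroblast activation protein, fell by 0.62 and passed no longer without day 7 replicate 1 or day 30 replicate 3. Without day 7 replicate 2, 12 markers rose and the median was 1.57. What part these markers had in the matrix genes was not tested.

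Proteases went both ways. Of 24 matrix protease and inhibitor genes, 11 rose and 3 fell (all genes: 19.2% and 19.1%), with a median of 0.61, and of 0.37 without day 7 replicate 2. Mmp14, the membrane-bound collagenase (chromosome 14, 54431612 to 54445364), had 81.9, 152 and 80.3 at day 7, 7.26, 2.73 and 5.61 at day 0 and 14.6, 19.6 and 14.5 at day 30. Mmp13, a secreted collagenase (chromosome 9, 7272514 to 7283331), was the reverse, with 29.4, 10.6 and 23.7 at day 7, 207, 126 and 108 at day 0 and 115, 106 and 118 at day 30. The differences were 3.33 ± 0.24 (adjusted p = 6.45e-07) and -2.63 ± 0.25 (adjusted p = 5.02e-06). Adam8, a metalloprotease of leukocytes, rose by 3.02 ± 0.24 and the inhibitor gene Timp1 by 2.33 ± 0.36, while Mmp9, gelatinase B, changed by -1.99 ± 0.29 and Adam19 by -1.33 ± 0.14. Mmp12, macrophage elastase, had 76.9, 47.9 and 94.2 at day 7, 68.1, 68.8 and 76.4 at day 0 and 109, 114 and 119 at day 30 and did not pass (adjusted p = 0.205). Inhibitors Timp2 (0.20) and Timp3 (0.75) did not pass.

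**Figure D4:**
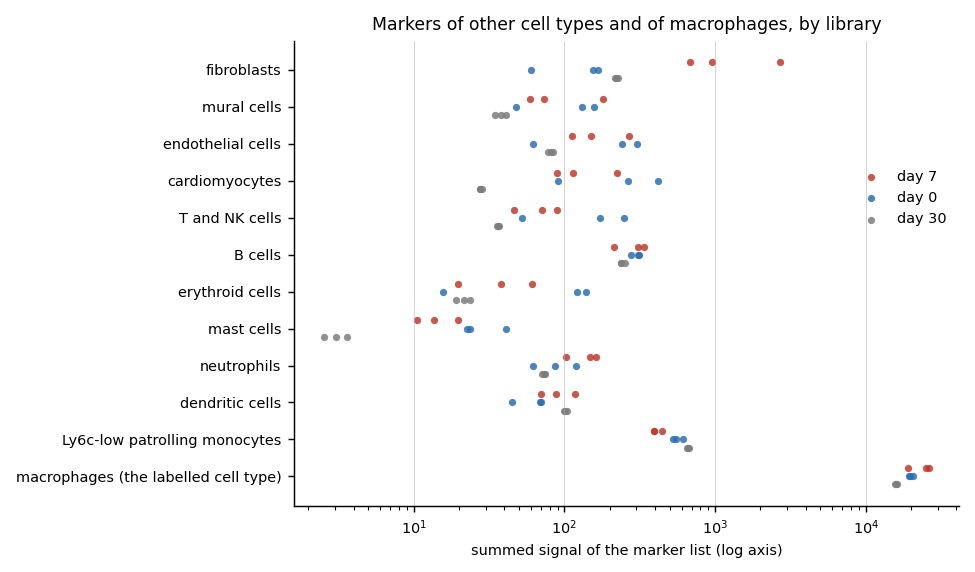
Summed signal of marker genes by library on a log axis, with day 7 in red above day 0 in blue and day 30 in grey. Fibroblast markers separate day 7 from the rest, with 680.1 to 2703.8 at day 7, while for cardiomyocyte, endothelial and mural markers the ranges of day 7 and day 0 overlap. Markers of Ly6c-low patrolling monocytes also separate day 7, with lower sums of 390 to 446.

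Genes of resident cardiac macrophages were lower at day 7. Of 29, 21 fell and 2 rose, with a median of -1.42, and 18 lay below both days; without day 7 replicate 2, 21 fell too. With the day 30 libraries averaged 21 fell and 5 lay below both days. Lyve1, a hyaluronan receptor (chromosome 7, 110850607 to 110863239), had 31.2, 19.4 and 62.7 at day 7, 575, 458 and 462 at day 0 and 238, 240.0 and 239 at day 30. The order was day 0, day 30, day 7 without overlap, and the difference of day 7 was -3.31 ± 0.31 (adjusted p = 3.88e-06). Day 30 stood below day 0 by a difference of -1.05, which did not pass (adjusted p = 0.0960). Timd4, the receptor TIM4 for phosphatidylserine on dying cells, had 10.9, 5.78 and 21.2 at day 7, 97.4, 85.2 and 92.4 at day 0 and 55.2, 57.2 and 57.0 at day 30 (-2.59 ± 0.35). Cd163, the haptoglobin-hemoglobin receptor (chromosome 6, 124304656 to 124330527), had 55.6, 23.4 and 52.1 at day 7, 510.0, 384 and 343 at day 0 and 231, 219 and 227 at day 30 (-2.86 ± 0.30). Day 30 values of both genes lay between the other days, and the difference of day 30 from day 0 passed for neither (adjusted p = 0.336 for Timd4 and 0.159 for Cd163).

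Folr2, a folate receptor of resident cells, had 38.6, 33.3 and 67.6 at day 7, 200.5, 175 and 154 at day 0 and 78.7, 85.4 and 83.5 at day 30. It fell against the average (-1.42 ± 0.28, adjusted p = 0.00157), but the test on both sides did not pass (adjusted p = 0.0912). Not all genes of the list were low: Igf1, insulin-like growth factor 1, had 436, 289 and 423 at day 7, 309, 324 and 294 at day 0 and 453, 451 and 475 at day 30 (adjusted p = 0.999). Gas6, a bridging ligand of apoptotic cells, and Stab1, a scavenger receptor, stood at -0.16 and 0.06 and did not pass. The 2 that rose were Fcrls, an Fc receptor-like protein (1.12 ± 0.30, adjusted p = 0.0535 without day 7 replicate 2), and Clec4n, the lectin dectin 2 (0.61). Among the 12 largest falls outside this list were Tppp, a tubulin polymerisation protein (-2.97 ± 0.28), Pla2g2d, a secreted phospholipase (-2.75 ± 0.28), and Peg10, an imprinted gene (-2.60 ± 0.23).

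Genes grouped as alternative activation split. Of 18, 6 rose and 10 fell, with a median of -0.69. Arg1, arginase 1 (chromosome 10, 24915221 to 24927484), had 36.9, 41.6 and 37.4 at day 7, 1.06, 0.629 and 4.17 at day 0 and 3.59, 3.53 and 4.88 at day 30, a rise of 3.47 ± 0.27 (adjusted p = 8.48e-07). Retnla, a secreted resistin-like protein (chromosome 16, 48842551 to 48844461), had 1.51, 0.462 and 3.07 at day 7, 36.4, 53.3 and 58.1 at day 0 and 31.8, 27.4 and 29.2 at day 30, a fall of -3.98 ± 0.26 (adjusted p = 5.01e-07). These 2 genes of 1 list lay at opposite ends, each without overlap of day 7 with the other days. Mrc1, the mannose receptor, changed by -1.53 ± 0.23, Mgl2, a lectin, by -2.18 ± 0.21 and the eosinophil chemokine gene Ccl24 by -3.00 ± 0.28, while Pparg, the lipid-activated nuclear receptor, rose by 0.94 ± 0.21. Chi3l3, a chitinase-like protein, did not pass at -0.23.

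Efferocytosis and scavenger receptors also split, with 12 of 29 higher, 10 lower and a median of 0.09, which was 0.14 without day 0 replicate 1; with the day 30 libraries averaged as 1 sample, 7 rose and 6 fell. Cd300lf, a receptor for lipids of dying cells, had 25.6, 20.9 and 14.9 at day 7, 1.19, 1.68 and 1.81 at day 0 and 4.45, 5.23 and 3.74 at day 30 (2.50 ± 0.19). Itgb5, an integrin chain that binds opsonised cells, rose by 1.40 ± 0.18 and Scarb1, the lipoprotein receptor SR-BI, by 1.35 ± 0.21. Mertk, the receptor kinase for apoptotic cells, had 110.1, 88.7 and 89.7 at day 7, 116, 81.6 and 73.5 at day 0 and 102, 103.6 and 92.5 at day 30 and did not pass (adjusted p = 0.919). Colec12, a scavenger collectin, fell by 1.62. Of 28 Fc and immunoglobulin-like receptors 13 rose and 5 fell, with a median of 0.20 (0.12 without day 0 replicate 1); Clec4d, a lectin of myeloid cells, rose by 1.93 ± 0.15 and Fcgr1, the high-affinity IgG receptor, by 0.90 ± 0.15, while Lilra5, an activating receptor, changed by -1.67 ± 0.21.

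**Figure D5:**
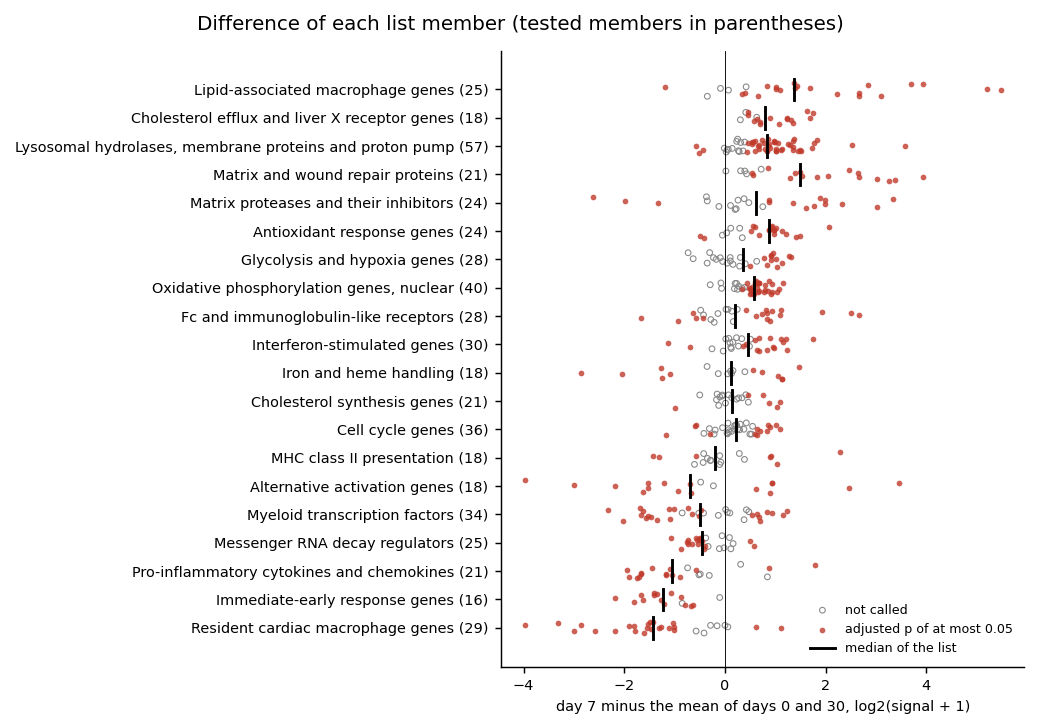
Difference of day 7 from the average of days 0 and 30, as log2(signal + 1), for each tested member of 20 gene lists (number tested in parentheses). Filled red points passed at an adjusted p of at most 0.05, open grey points did not, and the black bar is the median, which runs from 1.50 for matrix and wound repair proteins to -1.42 for resident cardiac macrophage genes.

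Genes of MHC class II presentation differed about as often as all genes (38.3%): of 18, 4 rose and 3 fell, with a median of -0.19. Without day 7 replicate 2, 5 fell, with a median of -0.33, and after the removal of trends on GC content and transcript length 8 fell. H2-Oa, a chain of the inhibitor of peptide loading, had 10.1 in the lowest and 20.7 in the highest day 7 library, 1.72, 1.57 and 1.09 at day 0 and 3.35, 2.83 and 2.47 at day 30 (2.29 ± 0.29). Cd86, a co-stimulator of T cells, had 63.7, 27.7 and 65.9 at day 7, 164, 129 and 102 at day 0 and 139, 131 and 140.1 at day 30 (-1.42 ± 0.23), and Cd80 changed by -1.30 ± 0.21. H2-Ab1, a class II chain, had 1319.5, 2401 and 1988 at day 7, 2498, 2524 and 2577 at day 0 and 1975, 2134 and 1869 at day 30 and did not pass (adjusted p = 0.274). The other chain H2-Aa stood at -0.57 (adjusted p = 0.0325), did not pass on both sides and missed the threshold when any of 6 libraries was left out.

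Of 30 interferon-stimulated genes 15 rose and 2 fell, with a median of 0.45, but 4 lay above both days. Day 7 differed upwards from day 0 in 18 (all genes: 11.4%) and from day 30 in 6 (all genes: 19.9%). Day 30 was itself above day 0 in 10 (all genes: 3.45%). With day 30 averaged as 1 sample, 10 rose and 1 fell. Irf7, the regulator of interferon genes, had 42.5, 97.8 and 63.1 at day 7, 15.05, 13.8 and 17.02 at day 0 and 21.8, 21.8 and 22.8 at day 30 (1.75 ± 0.23, adjusted p = 6.6e-05). The synthetase genes Oas3 (1.21) and Oas2 (-1.14) moved in opposite directions. Of 20 complement genes 10 rose and 2 fell (all genes: 19.2% and 19.1%), with a median of 0.50. Without day 7 replicate 2, 6 rose and 1 fell, with a median of 0.21. Cfb, complement factor B, had 29.5, 56.9 and 47.3 at day 7, 9.64, 9.96 and 7.24 at day 0 and 22.4, 22.9 and 19.9 at day 30 (1.56 ± 0.18). The C1q genes C1qa, C1qb and C1qc rose by 0.57, 0.88 and 0.72 and none of them passed on both sides; C1qa and C1qc missed the threshold without day 7 replicate 2 (adjusted p = 0.175 and 0.0635).

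Pro-inflammatory cytokines and chemokines were lower at day 7 against the average of the other days, a difference carried by day 30. Of 21, 13 fell and 2 rose, with a median of -1.06, but 2 lay below both days, Ccl2 and Ccl9. Against day 30 alone 15 were lower (all genes: 19.7%), with a median of -1.65, and against day 0 alone 3 were lower (all genes: 10.2%), with a median of -0.30; day 30 was above day 0 in 12 (all genes: 3.45%). Il1b, interleukin 1 beta, had 73.6, 57.9 and 94.8 at day 7, 220.2, 71.4 and 94.7 at day 0 and 532, 566 and 546 at day 30. Day 7 overlapped with day 0 and the day 30 libraries were the highest (-1.75 ± 0.27 against the average, adjusted p = 0.162 against day 0). Ccl2, a monocyte-attracting chemokine, had 41.6, 55.4 and 45.9 at day 7, 126, 76.3 and 88.4 at day 0 and 247, 239 and 240.1 at day 30 (-1.66 ± 0.15). Ccl8, another monocyte chemokine, went the other way, with 97.6, 108 and 225 at day 7, 13.3, 18.7 and 33.0 at day 0 and 69.6, 67.3 and 71.4 at day 30 (1.80 ± 0.34). Averaging the day 30 libraries as 1 sample left 10 of the 21 lower.

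Immediate-early genes, which a sort or dissociation of tissue can also induce, moved with the cytokines. Of 16, 14 were lower at day 7 and none higher, with a median of -1.24. Below both days lay 3 (1 without day 7 replicate 2), and against day 30 alone 15 were lower (all genes: 19.7%). With the day 30 libraries averaged as 1 sample, 8 were lower. Fos had 235, 141 and 328 at day 7, 656, 244 and 285 at day 0 and 971, 1002 and 979 at day 30. Hspa1a, a heat shock protein that shares reads with its near copy Hspa1b, had 253, 191 and 384 at day 7, 3081, 619 and 607 at day 0 and 865, 828 and 796 at day 30, so day 0 replicate 1 was far above the other day 0 libraries. The part of these genes in the cytokine and transcription factor results was not tested.

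Transcription factor genes fell more often than they rose, 16 against 8 of 34, with a median of -0.50. With the day 30 libraries as separate samples 10 lay below both days, a count that fell when they were averaged as 1 sample. Against day 0 alone 10 were lower and 7 higher (all genes: 10.2% and 11.4%), with a median of -0.17. Against day 30 alone 19 were lower and 7 higher (all genes: 19.7% and 19.9%), with a median of -0.70. Day 30 was above day 0 in 7 (all genes: 3.45%). After trends on GC content and transcript length were removed, the median of the list was -0.26. Klf2, a factor that restrains myeloid activation (chromosome 8, 72319033 to 72321656), had 9.23, 11.1 and 17.4 at day 7, 83.8, 41.8 and 45.6 at day 0 and 81.0, 76.3 and 74.99 at day 30 (-2.32 ± 0.21, adjusted p = 3.44e-06). Klf4 had 39.5, 25.8 and 41.8 at day 7, 217, 69.8 and 70.1 at day 0 and 211, 205 and 201 at day 30 (-2.02 ± 0.29). In both genes day 7 lay below all other libraries. Maf, a factor of macrophage identity, changed by -1.01 ± 0.13 and Irf4 by -1.54 ± 0.18. Those that rose beyond both days were Nr1h3, Cebpa (1.15 ± 0.17), the myeloid master regulator Spi1 (0.83 ± 0.19) and Irf8 (0.69). Of these, Cebpa still did so without day 7 replicate 2. The calls of these genes beyond both days rest on the day 30 libraries as separate samples and did not hold when they were averaged. Regulators of messenger RNA decay were lower in 15 of 25 and higher in 2, with a median of -0.46, but 1 lay below both days (Tial1) and 7 were lower without day 7 replicate 2, with a median of -0.25, and 3 with the day 30 libraries averaged. After trends on GC content and transcript length were removed, 5 were lower and the median was -0.04.

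Day 7 genes differed in length. By 4 classes of the longest annotated transcript, the median difference ran from 0.20 in the shortest (57 to 2090 bases), with 29.6% of genes higher and 11.98% lower, to -0.23 in the longest (4732 bases and more), with 11.9% higher and 30.3% lower. Removing trends on GC content and length from each library left 4028 genes called, 3130 of them shared with the 4939. Most members of the leading groups were still called then, with smaller medians. Higher were 19 of 25 lipid-associated genes (median 1.14, from 1.36) and 47 of 57 lysosomal genes (0.59, from 0.83). So were 16 of 21 matrix genes (1.46, from 1.50) and 12 of 18 cholesterol efflux genes (0.66, from 0.79). Lower were 22 of 29 resident macrophage genes (-1.34, from -1.42). Ribosomal protein genes, which are short, rose in 28 of 40 with a median of 0.70, and in 24 with a median of 0.40 after removal. Mitochondrially encoded genes fell in 7 of 15 with a median of -0.49 (all genes: 38.3% in either direction), and in 3 with a median of -0.12 after removal. Without day 0 replicate 1, 11 of the 15 mitochondrially encoded genes fell, with a median of -0.66.

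Values for energy metabolism come from the fit without removal of the trends on GC content and length. After removal, 12 of 28 glycolysis and hypoxia genes were higher and 3 lower, with a median of 0.47. Of 40 nuclear oxidative phosphorylation genes 24 were then higher, with a median of 0.43. Of 28 glycolysis and hypoxia genes 12 rose and none fell, with a median of 0.35, and 7 lay above both days, 1 with the day 30 libraries averaged. Pkm, pyruvate kinase, had 169.7, 309.9 and 192 at day 7, 81.7, 89.6 and 107 at day 0 and 80.5, 87.2 and 72.8 at day 30 (1.32 ± 0.19), and Tpi1, Ldha and Gapdh rose by 1.13, 1.03 and 1.01. The oxygen-regulated factor gene Hif1a had 69.9, 60.2 and 82.8 at day 7, 51.3, 52.9 and 55.2 at day 0 and 80.1, 80.4 and 79.9 at day 30 and did not pass (adjusted p = 0.534). Vegfa, an angiogenic factor it controls, did not pass at -0.73. Of 40 nuclear genes of oxidative phosphorylation 30 rose, with a median of 0.58, but 2 lay above both days. Day 7 was above day 0 in 5 (all genes: 11.4%), near the share of all genes, and above day 30 in 32 (all genes: 19.9%). Day 30 was below day 0 in 16 (all genes: 2.73%). Averaging the day 30 libraries as 1 sample left 19 higher. Cox4i1, a subunit of cytochrome oxidase, had 149.9, 276 and 235 at day 7, 114, 157 and 141 at day 0 and 67.9, 63.7 and 69.9 at day 30, an order of day 7, day 0, day 30 with overlap of the first pair (1.15 ± 0.18). Of 17 citric acid cycle genes 7 rose, with a median of 0.24, and 3 rose without day 7 replicate 2 or with the day 30 libraries averaged.

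Antioxidant genes rose in 17 of 24 and fell in 2, with a median of 0.88, and 13 lay above both days. Without day 7 replicate 2, 16 rose and 8 lay above both days, and with the day 30 libraries averaged 14 rose and 2 lay above both days. Gpx4, which reduces lipid peroxides, had 43.8, 55.5 and 39.7 at day 7, 16.8, 22.3 and 17.6 at day 0 and 14.7, 11.2 and 13.9 at day 30 (1.49 ± 0.15). Gpx3, a secreted glutathione peroxidase, rose by 2.06 ± 0.29 and Taldo1, transaldolase, by 1.42 ± 0.19. Nfe2l2, the factor that drives many of these genes, stood at -0.05 and Cat, catalase, at 0.03, and neither passed; Slc7a11, the cystine importer, stood at -0.50 and missed the threshold without day 7 replicate 2 (adjusted p = 0.164) or 4 other single libraries. Iron genes split, with 6 of 18 higher and 5 lower (all genes: 19.2% and 19.1%). The storage subunits Ftl1 and Fth1 rose by 1.46 ± 0.19 and 1.04 ± 0.18, Hmox1, heme oxygenase, by 1.13 ± 0.24 and the heme transporter Slc48a1 by 1.13 ± 0.15. Hmox1 had 291, 516 and 306 at day 7, 295, 137 and 143 at day 0 and 149.8, 148 and 150.3 at day 30, where day 0 replicate 1 lay within the day 7 range. Tfrc, the transferrin receptor, had 12.3, 16.9 and 23.96 at day 7, 45.5, 46.1 and 38.6 at day 0 and 43.3, 40.7 and 43.0 at day 30 (-1.28 ± 0.17), and Cp, ceruloplasmin, fell by 2.04. The exporter Slc40a1 did not pass at 0.16. Of 12 NADPH oxidase and antimicrobial genes 4 rose and 1 fell, near the share of all genes (38.3%). Cyba rose by 1.38 ± 0.18, and Lyz1, which shares reads with its near copy Lyz2, changed by -1.52 ± 0.24.

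Among 22 growth and angiogenic factors 8 rose and 4 fell, with a median of 0.47, which was 0.30 without day 7 replicate 2; with the day 30 libraries averaged 6 rose and 1 fell. Gdf3, a member of the TGF-beta family, had 13.9, 26.01 and 26.9 at day 7, 3.96, 3.04 and 2.90 at day 0 and 8.03, 7.77 and 7.80 at day 30 (1.86 ± 0.22). Tgfb3 rose by 1.94 ± 0.36 and Tgfb1, the main profibrotic isoform, by 1.13 ± 0.21. Bmp2, a bone morphogenetic protein, had 6.06, 5.32 and 3.798 at day 7, 26.3, 19.3 and 13.8 at day 0 and 34.5, 33.9 and 37.7 at day 30 (-2.18 ± 0.22). Chemokine receptors rose in 3 of 10 and fell in none (all genes: 38.3% in either direction): Cxcr3 (2.18 ± 0.25), Cxcr4 (1.33 ± 0.15) and Ccr7 (0.96). Ccr7, the receptor that guides cells to lymph nodes, did not differ from day 30 by the test (0.15, adjusted p = 0.746), and its call ended without day 7 replicate 1 or replicate 2 (adjusted p = 0.0549 without replicate 2) and with the day 30 libraries averaged (0.0855). Cxcr4, the receptor for CXCL12, had 190.3, 192 and 164 at day 7, 73.5, 49.2 and 62.8 at day 0 and 84.1, 82.3 and 87.3 at day 30. Ccr2, the receptor of recruited monocytes, had 402, 375 and 713 at day 7, 192, 284 and 329 at day 0 and 426, 418 and 421 at day 30 and did not pass (adjusted p = 0.0539). Of 24 genes of Ly6C-high monocytes 7 rose and 3 fell (all genes: 38.3% in either direction), with a median of 0.45. Without day 0 replicate 1, 7 rose and 5 fell, with a median of 0.25, and with the day 30 libraries averaged 4 rose and 2 fell. Cell cycle genes rose in 9 of 36 and fell in 4, also near the 38.3% of all genes, with a median of 0.22. Without day 7 replicate 2, 5 rose and 1 fell, without day 0 replicate 1, 10 rose and 2 fell, and with the day 30 libraries averaged 4 rose and 1 fell. Mki67, the proliferation marker, had 173, 65.3 and 123 at day 7, 103, 158 and 144 at day 0 and 218, 207 and 219.5 at day 30, with day 7 replicate 2 the lowest (-0.59 ± 0.22, adjusted p = 0.0483); without that library it stood at -0.21 and did not pass (adjusted p = 0.348).

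Markers of cardiomyocytes and of endothelial, mural, T and NK cells were less tied to day 7 than those of fibroblasts. Summed cardiomyocyte markers were 89.5 to 222.8 at day 7, 90.8 to 418.3 at day 0 and 27.5 to 28.5 at day 30. Against the average 1 of 13 passed, Myh6, and not without day 7 replicate 2 (adjusted p = 0.139). The sides differed: at day 7, 9 of the 13 were higher than at day 30 (all genes: 19.9%) and 5 lower than at day 0 (all genes: 10.2%). Day 30 was below day 0 in 11 (all genes: 2.73%). Endothelial markers summed to 112.6 to 269.2 at day 7, 61.9 to 303.7 at day 0 and 77.3 to 84.5 at day 30, with a median difference of 0.49 over 13 genes. That median was 0.15 without day 0 replicate 1 and -0.19 without both this library and day 7 replicate 2. Of 11 mural cell markers 4 rose and 2 fell (all genes: 38.3% in either direction). Acta2, smooth muscle actin, had 27.4, 86.1 and 22.9 at day 7, 2.64, 31.5 and 29.5 at day 0 and 3.67, 2.83 and 3.30 at day 30, overlapping with day 0 (2.27 ± 0.56). Without day 7 replicate 2, 1 of the 11 rose. T and NK cell markers summed to 46.1 to 89.7 at day 7, 52.0 to 248.8 at day 0 and 36.0 to 36.6 at day 30. In each of these cell types the ranges of day 7 and day 0 overlapped. Markers of Ly6c-low patrolling monocytes did separate day 7, with sums of 390 to 446 against 529 to 610 at day 0 and 648 to 669 at day 30. Of 10, 3 fell and none rose (all genes: 38.3% in either direction), with a median of 0.02, and 2 lay below both days. Mast cell markers summed to 10.5 to 19.5 at day 7, 22.6 to 40.9 at day 0 and 2.54 to 3.61 at day 30.

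Day 7 lay between the other days, with a difference between those days, in 2 genes that met the rule for naming. Bhlhe40, a basic helix-loop-helix repressor (chromosome 6, 108660629 to 108666925), had 50.7, 46.0 and 37.5 at day 7, 12.7, 11.95 and 14.7 at day 0 and 59.0, 54.8 and 55.9 at day 30. It was above day 0 by 1.69 (adjusted p = 7.26e-06) and did not differ from day 30 by the test (-0.34, adjusted p = 0.116). Tnip3, an inhibitor of NF-kappaB signalling, had 7.57, 10.4 and 7.60 at day 7, 5.41, 5.98 and 7.24 at day 0 and 25.7, 25.02 and 25.4 at day 30. Day 7 was close to day 0, and its call against the average (-0.54 ± 0.19, adjusted p = 0.0321) ended when 1 library was left out, for each day 30 library among others.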

How the data were processed

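RNA of sorted mouse heart macrophages was sequenced in 12 libraries, 3 per group. The signal values were deposited by the authors as linear normalised read counts per gene, with their log2 values in a second block. RSEM 1.2.20, cutadapt 1.3, edgeR 3.14.0 and build GRCm38 are named, per the submitters' processing notes, with no role stated. All 173520 deposited log2 cells equalled the log2 of the linear values within 1e-09, with values below 1 set to 0. Every signal was a whole multiple of the worth of 1 read in its library (100% of values, tolerance 0.02 reads), so reads were recovered: 5828904 to 13199576 per library, of which 4 RNAs (mt-Rnr1, mt-Rnr2, Gm26924 and Lars2) took 25.5% to 49.3%.

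Genes whose signal averaged 1 or more across the series were tested with limma 3.58.1 (trend) in R 4.3.3 on log2(signal + 1), which understates the change of low genes. Adjusted p-values are Benjamini-Hochberg over all genes tested, with a threshold of 0.05. Beside the contrast of day 7 with the average of days 0 and 30, a gene outside both days had to pass the larger of its p-values against each day. Gene symbols were those of the table, 15 of them restored from dates that a spreadsheet had made of them. Named genes were the 12 largest differences each way among genes that passed both tests without overlap and reached a mean signal of 10, up to 4 members per list by size, genes between days 0 and 30, and a fixed set of markers; other members are named to account for their list. The members and lists were chosen with earlier results of these data known. The labels do not say more of the replicates than that they are independent, so p-values measure the spread between these libraries. Over all genes, the deviations of same-numbered libraries had a median correlation of 0.00490, with 3 of 18 pairs over 0.1. Differently numbered libraries had a median of -0.00690, with 3 of 36 pairs over 0.1. Replicate numbers were not used as pairs. In some lists, though, replicate 1 was the lowest in every group. Summed Ly6C-high monocyte genes are an example, with 2294 against 3470 and 3242 at day 7 and 3182 against 3705 and 3616 at day 0. Alternatives were other pseudocounts, filters, scalings, a replicate block, edgeR 4.0.16 and DESeq2 1.42.0 on recovered reads, and leaving out libraries. Values of some single list members are not reported here.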

Additional observations from a re-analysis of the deposited data

How the results depend on the processing

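Named genes numbered 155, of which a minimum mean signal of 5 kept 141. Over these genes and the alternatives that tested them, 4169 gene-and-setting values stayed on their side of the threshold. Another 143 lost the call and 13 gained it. None called in either fit reversed direction, and changes of sign in genes called in neither were not counted. Counts of called genes depended most on a minimum size, on the day 30 libraries and on single libraries. Asking for a log2 difference of at least 1 left 1473 genes against the average of days 0 and 30 (748 higher and 725 lower), 735 outside both days (394 and 341), 1255 against day 0, 2065 against day 30 and 335 between day 30 and day 0. Averaging the closely alike day 30 libraries as 1 sample gave 2460 (1291 and 1169), 198 (130 and 68), 1740, 815 and 14 in the same order. Leaving out day 7 replicate 2 and day 0 replicate 1 together gave 1061 outside both days, 476 of them lower, and 2513 between day 30 and day 0, for which DESeq2 called 1327. Leaving out 1 library at a time gave 3449 to 5210 genes against the average, 1003 to 2318 outside both days (553 to 1143 higher, 445 to 1175 lower) and 235 to 1990 between day 30 and day 0. The count outside both days was 1012 without day 7 replicate 2, 1081 and 1078 without day 0 replicates 2 and 3, and 1029, 1031 and 1003 without each day 30 library. The count between day 30 and day 0 was 1990 without day 7 replicate 2, 268 and 402 without day 0 replicates 2 and 3, and 276, 235 and 272 without each day 30 library. A day 7 library bears on the count between day 30 and day 0 only through the spread estimate that all groups share. What else moved the counts was not tested.

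With replicate number as a block, for which the check of pairing over all genes gave little ground, 4969 genes were called against the average and 1717 outside both days. On recovered reads edgeR called 4865 and 1550, and DESeq2 5210 and 2115. Removal of trends on GC content and transcript length, chosen after seeing the data, left 4028 and 1481, of which 3130 and 1094 were among those of the unadjusted fit. Depth limited genes near 3 reads, a signal of 0.190 to 0.543.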

Other observations

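The day 3 libraries came from another gate (Ly6chigh/CX3CR1low), so their levels are not compared with those above. Genes high at day 7 had these signals there: Gpnmb 667, 196 and 469, Spp1 1883, 663 and 1278, Ctsd 1491, 894 and 1265, and Igf2r 97.9, 49.6 and 68.8. Cd5l, the lipid-binding secreted protein, had 19.9, 1.65 and 5.16. Arg1 had 211, 198 and 205, and its 3 day 3 values lay within a narrow range. Genes low at day 7 had signals of 4.12, 1.06 and 1.06 for Lyve1 and of 6.04, 1.89 and 1.59 for Cd163.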
